A study of Mus musculus with 2 samples.

Results

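The 5 genes described here encode the main neuropeptides of nociceptors, the neurons that detect harmful stimuli. *Calca* and *Calcb* encode the alpha and beta forms of calcitonin gene-related peptide (CGRP), *Tac1* encodes substance P and neurokinin A, *Adcyap1* encodes PACAP, and *Gal* encodes galanin. They were chosen by gene symbol, as the peptide genes of nociceptors, and all 5 were found among the 36541 genes counted in the control library and among the 32641 counted in the CFA library, which together list 39098 symbols. Single-cell RNA-seq had been performed on right trigeminal ganglia (TGs), which hold the sensory neurons of the face, from male C57BL/6 mice aged 5 to 8 weeks. For the CFA library, 20 μL of complete Freund's adjuvant (CFA), an emulsion that causes local inflammation, mixed 1:1 with saline, had been injected into the right vibrissal pad, and the ganglia were taken 7 days later. The label of the control library reads untreated, whereas the methods of the study describe an injection of saline in its control group. The study had 6 mice per group, but the number of mice behind a library is not given in the sources used here. With 1 library per condition, no test between conditions was possible, and differences between the libraries have no replicate check.

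Neuropeptides are made as precursors, cut and amidated in dense core vesicles and released from both ends of the sensory neuron. Released in skin, tooth pulp or meninges, CGRP and PACAP widen blood vessels and substance P makes them leaky. Released in the brainstem, they pass on nociceptive signals, and galanin, which many injured sensory neurons start to make, mostly dampens transmission. CGRP and PACAP are known for their part in migraine, a disorder of the trigeminal system. Many peptidergic nociceptors carry the artemin receptor gene *Gfra3* or the heat-gated channel gene *Trpv1*, whereas nonpeptidergic nociceptors carry Mas-related receptors such as *Mrgprd* and *Mrgpra3*.

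The positions of the genes in GENCODE M21 (GRCm38) show which of them could share reads. *Calca* (chr7:114631478-114636357, minus strand) and *Calcb* (chr7:114718643-114723365, plus strand) are neighbours, separated by 82285 bases. *Tac1* lies on chromosome 6 (chr6:7554879-7565834, plus strand), *Adcyap1* on chromosome 17 (chr17:93199017-93206537, plus strand) and *Gal* on chromosome 19 (chr19:3409915-3414544, minus strand). The transcripts of *Calca* and *Calcb* are alike, and their longest shared stretch of 61 bases, shown because reads inside it cannot be given to one gene, is all coding and spans exons 3 and 4 of the 5 of Calca-201 and exons 4 and 5 of the 6 of Calcb-203.
Calca and Calcb, longest shared stretch: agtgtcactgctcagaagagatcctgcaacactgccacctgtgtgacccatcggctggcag
Of the 1678 different 50-base windows in *Calca* transcripts, 12 (0.715%) also occurred in *Calcb*, and 0.952% of the 1260 *Calcb* windows occurred in *Calca*. Most reads of the pair can therefore be told apart, although how shared reads were treated is not given in the sources used here. The *Calca* gene also encodes calcitonin by alternative splicing, and counts per gene do not separate that transcript from the one for CGRP.

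Neurons were picked by raw counts of unique molecular identifiers (UMIs, molecules counted once) of the 5 genes *Tubb3*, *Snap25*, *Stmn2*, *Elavl4* and *Uchl1*. Their classes were set by other marker genes, and none of the 5 peptide genes described here took part. This gave 730 control and 380 CFA neurons. Peptidergic neurons low in the neurofilament gene *Nefh*, called C-PEP here, numbered 337 and 186, respectively, and were split into 92 and 62 with the somatostatin receptor gene *Sstr2* and 245 and 124 without it. The other classes were *Nefh*-high peptidergic neurons (A-PEP, 33 and 16), *Mrgprd* neurons (NP1 of the study, 147 and 58), *Mrgpra3* neurons (NP2, 44 and 12), *Trpm8* cold-sensing neurons (49 and 24), C-fiber low-threshold mechanoreceptors (cLTMR, 68 and 44), other *Nefh*-high neurons (17 and 11) and *Nppb* neurons (PEP2 of the study, 14 and 11). Fiber types were not measured, and A and C only stand for high and low raw counts of *Nefh*. Raw counts rise with depth, so deeper neurons pass such gates more readily. A-PEP neurons had a median of 60104 UMIs in control and 54135 in CFA cells, against 36402 and 31593 in C-PEP neurons.

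The levels of the gate genes were fixed by the gates, so other markers were read beside them, in CPM, counts per 1000000 UMIs. *Lpar3* was at 547 CPM in *Mrgprd* neurons of the control library and at 33.1 CPM in C-PEP neurons, *Mrgprx1* at 44.7 CPM in *Mrgpra3* neurons and 6.79 CPM in C-PEP neurons, and *Foxp2* at 122 CPM in *Trpm8* neurons and 2.14 CPM in C-PEP neurons. *Sst* was at 2101 CPM in *Nppb* neurons, *Th* at 181 CPM in cLTMR neurons, but also at 138 CPM in *Trpm8* neurons, and *Trpa1* at 552 CPM in C-PEP and 497 CPM in A-PEP neurons. The deposited files held 7298 control and 4080 CFA cells with 48916096 and 22096268 UMIs, and 27 barcodes occurred in both. Neurons were deep, with a median of 47335 UMIs in control cells and 38545 in CFA cells, whereas the 5745 and 3182 non-neuronal cells had medians of 1282 and 1076 UMIs.

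*Calca* was highest in the peptidergic classes, clear in *Mrgpra3* neurons, lower in *Mrgprd* and *Trpm8* neurons and below the CPM of non-neuronal cells in cLTMR neurons. In C-PEP neurons it reached 11616 CPM (11558 to 11675) in control cells and 9592 CPM (9517 to 9668) in CFA cells. Parentheses after a level, share or ratio hold exact 95% intervals, which cover counting error only. These neurons held 72.8% of all *Calca* UMIs of neurons in control cells and 77.9% in CFA cells. Most C-PEP neurons were rich in *Calca*, since the 10th, 50th and 90th percentiles over cells were 6749, 11727 and 16468 CPM in control cells and 5239, 9509 and 13528 CPM in CFA cells. A-PEP neurons followed with 9948 CPM in control cells and 8139 CPM in CFA cells, and their cells spread from 2316 to 17763 CPM between the 10th and 90th percentiles in the control.

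*Mrgpra3* neurons, which are known as itch neurons, had 4669 CPM (4599 to 4741) of *Calca* in control cells and 4236 CPM (4091 to 4385) in CFA cells. *Mrgprd* neurons, the classical nonpeptidergic nociceptors, had 1175 CPM (1155 to 1196) and 967 CPM (937 to 999), respectively. Both classes thus lay well above the 285 CPM (274 to 296) of control and 109 CPM (99.7 to 119) of CFA non-neuronal cells. *Trpm8* neurons had 1406 CPM in control cells and 632 CPM in CFA cells, but 1 neuron gave 36.3% and 43.6% of these UMIs. *Nefh* neurons had 419.6 and 399 CPM, with 54.9% and 53.9% from 1 neuron. In cLTMR neurons *Calca* was at 185 CPM (172 to 199) in control cells and 53.5 CPM (44.4 to 64.0) in CFA cells, and in *Nppb* neurons at 219 and 45.6 CPM. These levels are below those of non-neuronal cells of the same library, but neurons are far deeper, and a cLTMR neuron held 10.8 and 2.73 *Calca* UMIs on average against 0.449 and 0.152 in a non-neuronal cell. How much of them is free RNA was not tested. The intervals of Sstr2- and Sstr2+ C-PEP neurons overlapped in the control library (11661 and 11496 CPM) and did not in the CFA library (9811 and 9167 CPM), and the ranges over cells overlapped in both.

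*Calcb* had another order of classes, with its highest level in *Mrgprd* neurons. It reached 670.1 CPM (655 to 686) there in control cells and 552 CPM (529 to 576) in CFA cells, against 470.3 CPM (459 to 482) and 394 CPM (379 to 409.6) in C-PEP neurons. *Mrgprd* neurons therefore exceeded C-PEP neurons by 0.51 on the log2 scale (0.46 to 0.56) in control cells and by 0.49 (0.40 to 0.57) in CFA cells, whereas their *Calca* was lower by a log2 of -3.31 in both. They held 41.1% of the *Calcb* UMIs of control neurons and 36.6% of those of CFA neurons, and C-PEP neurons held 35.3% and 43.4%. *Mrgpra3* neurons had 458 and 519 CPM, A-PEP neurons 366 and 259.7 CPM, *Trpm8* neurons 214 and 152 CPM, and cLTMR neurons 202 and 124 CPM, all above the 22.4 and 9.45 CPM of non-neuronal cells. *Nefh* and *Nppb* neurons had at most 90.1 CPM, on 10 to 70 UMIs per library. The intervals of *Mrgpra3* and Sstr2- C-PEP neurons overlapped in the control library, as did those of *Mrgprd* and *Mrgpra3* neurons in the CFA library.

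*Tac1* was highest in the peptidergic classes and lowest in *Mrgpra3* neurons. Its CPM exceeded that of *Calca* in *Trpm8*, *Nefh*, cLTMR and *Nppb* neurons of both libraries. C-PEP neurons had 6993 CPM (6948 to 7038) in control cells and 5688 CPM (5630.2 to 5747) in CFA cells, and A-PEP neurons had 5951 and 4102 CPM. The percentiles over C-PEP cells ran from 2729 over 6807 to 11970 CPM in control cells and from 2207 over 5298 to 9719 CPM in CFA cells. *Trpm8* neurons came next with 2629.8 CPM (2568 to 2693) and 1464 CPM (1390.5 to 1540.1), followed by *Nefh* neurons with 1583 and 819 CPM and cLTMR neurons with 823 CPM (795 to 851) and 589 CPM (557 to 621). In cLTMR neurons the values were spread evenly over cells, as no neuron held more than 5.91% of the UMIs in either library, whereas 1 neuron gave 35.6% and 51.6% of the UMIs of *Nefh* neurons. *Mrgprd* neurons had 391 CPM in control cells and 389.6 CPM in CFA cells. *Mrgpra3* neurons had 81.5 CPM (72.4 to 91.4) and 51.3 CPM (36.5 to 70.2), below the 139.6 CPM of control non-neuronal cells and the 67.3 CPM of CFA ones, with 6.59 and 3.25 UMIs per neuron. *Nppb* neurons had 619.9 and 82.2 CPM, and 1 neuron gave 41.0% of the control UMIs.

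*Adcyap1* was the most restricted of the genes beside *Gal*. C-PEP neurons held 84.2% of its neuronal UMIs in control cells and 88.7% in CFA cells, at 1927 CPM (1903 to 1950.4) and 1981 CPM (1946 to 2015). Sstr2+ neurons exceeded Sstr2- neurons in both libraries, with 2363 against 1763 CPM in control cells and 2312 against 1811 CPM in CFA cells, which is a log2 difference of 0.42 (0.39 to 0.46) and 0.35 (0.30 to 0.40), respectively. The cells of both classes overlapped between their 10th and 90th percentiles. A-PEP neurons had 1198 and 922 CPM and *Trpm8* neurons 468 and 349 CPM. *Nppb* neurons had 147 and 63.9 CPM and *Nefh* neurons 108 and 122 CPM, in each case with at least 33.3% from 1 neuron. *Mrgpra3*, *Mrgprd* and cLTMR neurons had between 6.24 and 31.5 CPM, near or below the 28.7 and 25.2 CPM of non-neuronal cells. In *Mrgprd* neurons 1 cell held 33.2% and 66.2% of these few UMIs.

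C-PEP neurons held 87.5% of the neuronal *Gal* UMIs of the control and 91.8% of those of the CFA library, and the level was higher in those with *Sstr2*. Sstr2+ neurons had 712 CPM (685 to 740.3) in control cells and 507 CPM (477 to 537) in CFA cells, and Sstr2- neurons had 385 CPM (373 to 398) and 359 CPM (341 to 378). The log2 difference was 0.89 (0.81 to 0.96) in control cells and 0.50 (0.38 to 0.61) in CFA cells. Not all C-PEP neurons took part, since the 10th percentile over cells was 0 CPM and the 90th 1023 CPM in the control, and 34.4 and 745 CPM in the CFA library. A-PEP neurons had 217 and 93.4 CPM and *Trpm8* neurons 78.6 and 83.5 CPM. In all other classes *Gal* rested on 1 to 64 UMIs per library, at or near the 7.83 and 3.15 CPM of non-neuronal cells.

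**Figure D1:**
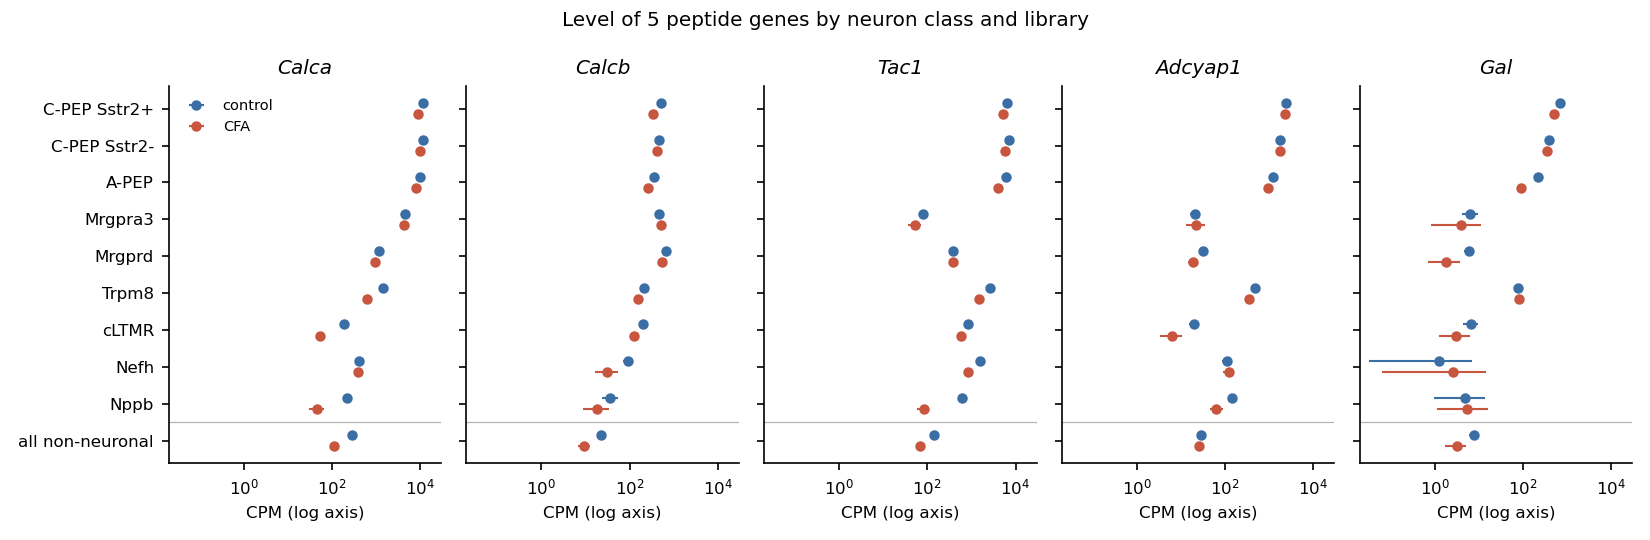
Level of each gene in CPM (log axis) for 9 neuron classes and all non-neuronal cells, in the control (blue) and CFA (red) libraries; bars are exact 95% Poisson intervals. *Calca* is high in the peptidergic and *Mrgpra3* classes, *Calcb* peaks in *Mrgprd* neurons, and *Gal* outside the peptidergic and *Trpm8* classes sits near the non-neuronal level.

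To compare single neurons of unequal depth, each was thinned to 5000 UMIs at random, and a gene was called detected at 3 or more. No neuron was too shallow. *Calca* was detected in 98.8% of control (97.0 to 99.7) and 98.9% of CFA C-PEP neurons (96.2 to 99.9), *Tac1* in 98.2% and 97.3%, and *Adcyap1* in 94.1% and 93.5%. The 3 genes were found together in 309 of 337 control C-PEP neurons (91.7%, 88.2 to 94.4) and in 169 of 186 CFA C-PEP neurons (90.9%, 85.8 to 94.6). No C-PEP neuron of either library had *Calca* with neither *Tac1* nor *Adcyap1*, and *Tac1* without *Calca* was seen in 4 control and 2 CFA neurons. Since each gene alone was detected in nearly all C-PEP neurons, the overlap does not show that they vary together. With at least 10 UMIs the 3 genes were together in 47.2% of control and 49.5% of CFA C-PEP neurons.

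*Calcb* and *Gal* lay near the detection threshold in C-PEP neurons, with medians of 2 thinned UMIs in the control. Their shares therefore depend on that threshold and on the number of UMIs to which all neurons were thinned. *Calcb* was detected in 35.9% of control and 32.3% of CFA C-PEP neurons and *Gal* in 38.9% and 34.9%. Averaged over all possible draws, the shares would be 34.7% and 28.9% for *Calcb* and 43.0% and 36.8% for *Gal*. *Gal* was detected in 59.8% of Sstr2+ (49.0 to 69.9) against 31.0% of Sstr2- neurons (25.3 to 37.2) in the control, and in 40.3% (28.1 to 53.6) against 32.3% (24.1 to 41.2) in the CFA library, where the intervals overlapped. Read the other way, *Sstr2* was at 88.6 CPM in control C-PEP neurons with detected *Gal* and 33.3 CPM in those without. In the CFA library it was alike, at 85.9 and 84.6 CPM. All 5 genes were detected in 13.9% of control and 12.4% of CFA C-PEP neurons.

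**Figure D2:**
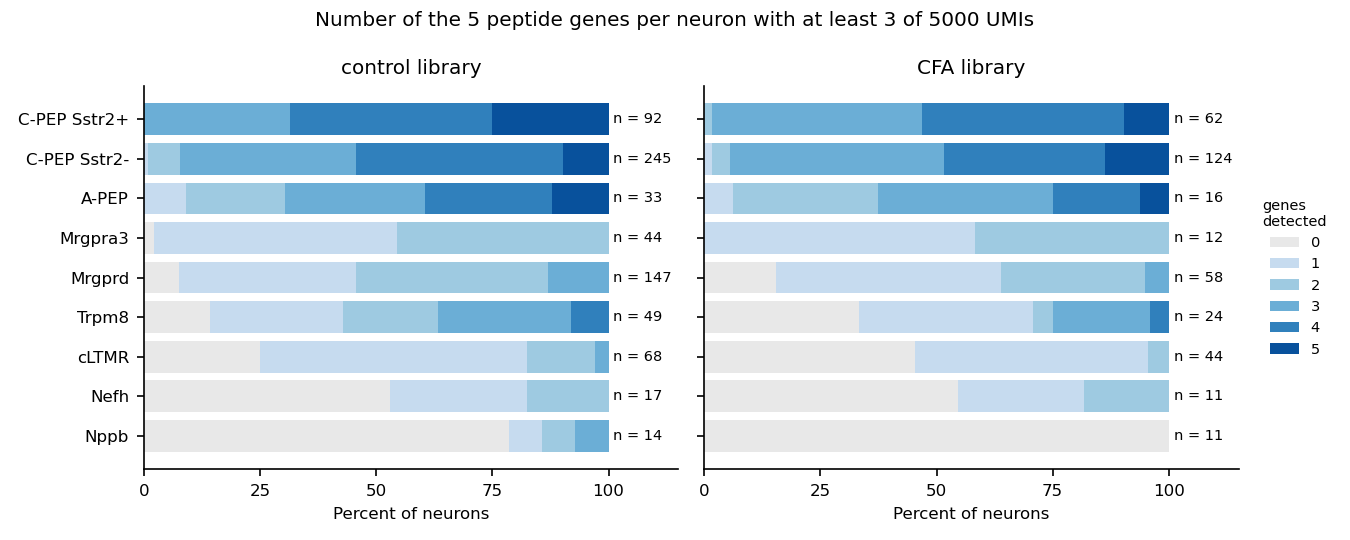
Percent of neurons of each class in which 0 to 5 of the peptide genes were detected (at least 3 of 5000 UMIs), with the number of neurons at the right. Nearly all C-PEP neurons had 3 or more of the genes, *Mrgpra3* neurons had at most 2, and most *Nppb* neurons had 0.

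Outside the peptidergic classes the combinations differed in frequency between classes, but classes shared them. *Mrgpra3* neurons had *Calca* without *Tac1* and *Adcyap1* in 42 of 44 control neurons (95.5%, 84.5 to 99.4) and in 10 of 12 CFA neurons (83.3%, 51.6 to 97.9). *Mrgprd* neurons also had *Calca* without *Tac1* and *Adcyap1*, in 74 of 147 control and 19 of 58 CFA neurons. cLTMR neurons had *Tac1* without *Calca* in 58.8% of control (46.2 to 70.6) and 52.3% of CFA neurons (36.7 to 67.5). *Tac1* without *Calca* was also seen in 18 of 49 control and 12 of 24 CFA *Trpm8* neurons. In *Nefh* neurons it was seen in 5 of 17 control and 3 of 11 CFA neurons. *Calca* was detected in 10 of 68 control cLTMR neurons (14.7%, against 7.12% over all draws) and in 0 of 44 CFA neurons, which allows a share of up to 6.82% at this threshold (3 counts of 44 neurons), although 88.6% of these neurons had a *Calca* UMI before thinning. *Mrgprd* neurons had *Calca* in 75.5% of control (67.7 to 82.2) and 55.2% of CFA neurons (41.5 to 68.3), *Calcb* in 51.7% and 41.4%, and *Tac1* in 31.3% and 27.6%, and *Adcyap1* in 2 of 147 and 1 of 58 neurons. *Trpm8* neurons had *Tac1* in 85.7% and 66.7%, *Calca* in 49.0% (34.4 to 63.7) and 16.7% (4.74 to 37.4) and *Adcyap1* in 38.8% and 29.2%. In the scatter of single neurons the classes differed in place but overlapped, with *Mrgpra3* neurons at high *Calca* and low *Tac1* and cLTMR neurons at low *Calca* and intermediate *Tac1*.

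**Figure D3:**
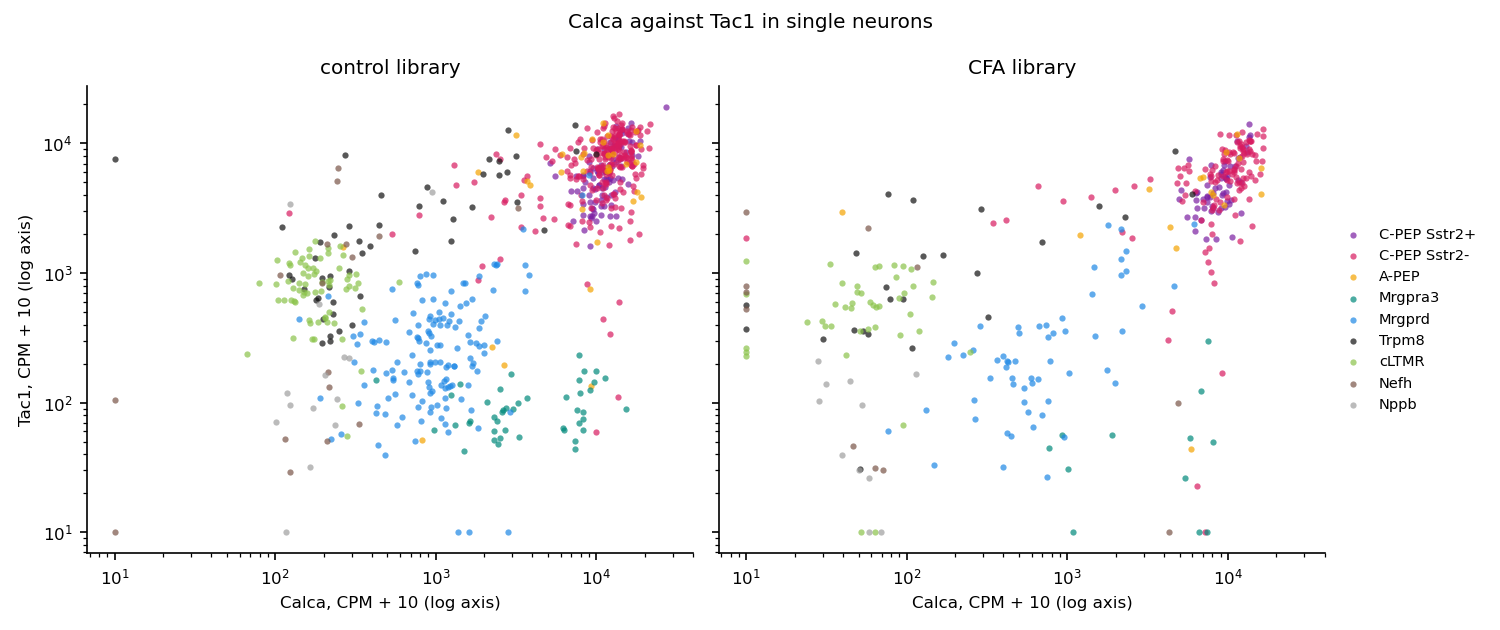
*Calca* against *Tac1* in single neurons, each in CPM plus 10 on log axes, colored by class, for the control (left) and CFA (right) libraries. C-PEP neurons gather at the top right, *Mrgprd* neurons lie at intermediate *Calca* with *Tac1* from 10 upward, and *Trpm8* neurons stretch between the cLTMR and C-PEP clouds.

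*Trpm8* neurons divided by *Calca*. The 24 control neurons with *Calca* had 4679 CPM of *Tac1*, 887 CPM of *Adcyap1* and 147 CPM of *Gal*, against 1115, 159 and 27.6 CPM in the 25 without it. They also had the nociceptor genes *Gfra3* at 494 against 11.4 CPM, *Trpa1* at 409.6 against 8.08 CPM and *Trpv1* at 309.5 against 26.3 CPM, with less *Nefh* (849 against 1675 CPM) and *Trpm8* itself at a log2 difference of -0.54 (-0.81 to -0.27). Neurons with *Calca* were not deeper, with a median of 40190 against 53455 UMIs. Without the neuron richest in *Trpa1*, that gene was at 144 CPM in those with *Calca*, and without the neuron richest in *Trpv1*, that gene was at 11.7 CPM in those without it. *Gfra3* in the latter was 6.25 CPM without its highest neuron. In the CFA library only 4 *Trpm8* neurons had *Calca*, and they again had more *Tac1* (4368 against 999 CPM) and *Gfra3* (605 against 54.7 CPM, or 28.3 CPM without the highest of the neurons lacking *Calca*).

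Among *Mrgprd* neurons, the 23 control cells with 10 or more *Calca* UMIs of 5000 had 944 CPM of *Tac1* and 109 CPM of *Adcyap1*, against 287 and 16.8 CPM in the other 124. Much of the *Adcyap1* value came from 1 neuron, without which it was 46.2 CPM. With all cells the 23 had *Gfra3* at 91.2 against 3.44 CPM, and at 50.6 CPM without the neuron richest in it. Both genes thus stayed above the other 124. The 23 cells had less *Mrgprd* (403 against 562 CPM) and *Lpar3* (369.6 against 581 CPM). Their *Calcb* differed far less, at 759 against 653 CPM. In the 7 such cells of the CFA library *Tac1* was again higher (827 against 340.3 CPM) and *Lpar3* lower (207 against 589 CPM), whereas *Calcb* was lower (412 against 568 CPM). Among control *Mrgpra3* neurons, 35 with 10 or more *Calca* UMIs had *Trpv1* at 129.97 CPM against 4.75 CPM in the other 9, and *Mrgpra3* at 705 against 328 CPM. *Nefh* was at 103 against 204 CPM, and *Calcb* at 483 against 375 CPM. *Trpa1* went the other way from *Trpv1*, at 64.4 against 128 CPM in the control. It was at 13.8 against 74.1 CPM in the CFA library, on 6 and 24 UMIs. In the CFA library the 7 high cells had 181 CPM of *Trpv1* and 1019 CPM of *Mrgpra3*, and the other 5 had 0 UMIs and 324 CPM. The 4.75 CPM of *Trpv1* in the control rest on 4 UMIs.

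Within the C-PEP class the genes varied together only in part. Over the 337 control and 186 CFA neurons, thinned to equal depth, Spearman's rho was 0.40 and 0.54 for *Calca* and *Tac1*, 0.32 and 0.32 for *Calca* and *Calcb*, and 0.31 and 0.28 for *Calcb* and *Tac1*. *Adcyap1* went with *Calca* at 0.10 and 0.19, with *Tac1* at 0.09 and 0.17 and with *Gal* at 0.26 and 0.19. The lowest values were those of *Tac1* and *Gal*, -0.14 and -0.06. These values pool Sstr2+ and Sstr2- neurons, which differed in part. For *Adcyap1* and *Gal*, rho was -0.10 and 0.006 in Sstr2+ neurons and 0.27 and 0.21 in Sstr2- neurons. For *Adcyap1* and *Calca*, it was -0.06 and 0.11 in Sstr2+ neurons and 0.21 and 0.28 in Sstr2- neurons. All cells of a correlation share 1 library, and the thinned counts of *Calcb* and *Gal* are low.

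To find how the peptide genes stood under orofacial inflammation, the CFA library was compared with the control library class by class, as the log2 ratio of CPM. In C-PEP neurons, *Calca* (-0.28, -0.29 to -0.26), *Calcb* (-0.26, -0.32 to -0.19), *Tac1* (-0.30, -0.32 to -0.28) and *Gal* (-0.21, -0.28 to -0.15) were lower in the CFA library, and *Adcyap1* was not (0.04, 0.01 to 0.07). So 4 of the 5 genes were lower by at least 0.2, the fold used in the methods of the study, and 0 were higher. Of all 10636 genes with at least 100 UMIs in the class, 22.1% were lower and 21.8% higher by that fold, and among the 743 genes with at least 5000 UMIs the shares were 16.6% and 18.2%. The 4 ratios lay inside the range that held the middle 80% of genes, with 13.2% to 20.7% of genes below them. The count depended on the settings. With the UMI thresholds of the classes doubled, *Calca* and *Tac1* came to -0.195 and *Calcb* to -0.19, so that only *Gal* (-0.23), 1 of the 5 genes, was past the fold. It was 3 of 5 with the thresholds halved, where *Calcb* came to -0.195, and 3 of 5 after thinning to 5000 UMIs, where *Gal* came to -0.19. Over all neurons the ratios were -0.21 for *Calca*, -0.38 for *Calcb*, -0.20 for *Tac1*, -0.11 for *Gal* and 0.13 for *Adcyap1*, against 20.3% of 12899 genes lower by the fold.

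The cells of both libraries overlapped widely, as the percentiles above show. Interferon-induced genes moved with the libraries. In all, 8 of them, chosen after their values were seen (*Gbp2*, *Iigp1*, *Gbp4*, *Irgm1*, *Cxcl9*, *Cxcl10*, *Ifit3* and *Isg15*) summed to 315 CPM in control and 65.6 CPM in CFA C-PEP neurons, and 30 control and 3 CFA neurons had 20 or more of their UMIs. Without those neurons, an alternative also added after seeing the data, the ratios were -0.27 for *Calca*, -0.26 for *Calcb*, -0.30 for *Tac1*, 0.06 for *Adcyap1* and -0.24 for *Gal*.

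Both C-PEP classes showed lower *Calca* and *Tac1*, and *Calcb* and *Gal* differed more in the class with *Sstr2*. In Sstr2+ neurons *Calcb* was at -0.59 (-0.72 to -0.47) and *Gal* at -0.49 (-0.59 to -0.39), against -0.11 (-0.19 to -0.03) and -0.10 (-0.19 to -0.01) in Sstr2- neurons. The difference between the classes has no replicate check. The gate gene *Sstr2* itself differed between the libraries in C-PEP neurons without detected *Gal* (33.3 CPM in control and 84.6 CPM in CFA cells). It was alike in those with *Gal* (88.6 and 85.9 CPM). Other neurons passing the *Sstr2* gate and other levels per neuron cannot be told apart here. Of all genes, 23.1% were lower by the fold in either class. A-PEP neurons, with 16 CFA cells, had *Gal* at -1.22 (-1.56 to -0.89) and the other 4 genes between -0.54 and -0.29, against 24.2% of genes lower. In *Mrgprd* neurons *Calca* (-0.28, -0.33 to -0.23) and *Calcb* (-0.28, -0.35 to -0.21) were lower and *Tac1* was not (-0.01, -0.09 to 0.08), with 23.3% of genes lower. Their few *Adcyap1* UMIs, of which 1 neuron gave 33.2% of the control and 66.2% of the CFA ones, were at -0.77 (-1.16 to -0.40). In *Mrgpra3* neurons, of which 12 were from the CFA library, *Calca* was at -0.14 (-0.20 to -0.09) and *Calcb* at 0.18 (0.02 to 0.34), with 31.4% of genes lower.

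The ratios furthest from 0 were in classes with few cells or low levels. *Trpm8* neurons had *Calca* at -1.15 (-1.28 to -1.03) and *Tac1* at -0.85 (-0.93 to -0.76), with 30.3% of genes lower. The share of *Trpm8* neurons with *Calca* was lower as well, 4 of 24 against 24 of 49, so that fewer such cells and less *Calca* per cell cannot be told apart from these sums. In cLTMR neurons *Tac1* was at -0.48 (-0.58 to -0.39) and *Calcb* at -0.70 (-0.90 to -0.50), with 24.3% of genes lower. The ratio furthest from 0 was that of *Tac1* in *Nppb* neurons, -2.92 (-3.39 to -2.47), on 45 CFA and 388 control UMIs. *Calca* stood at -1.79 in cLTMR and -2.26 in *Nppb* neurons, and at -1.38 (-1.53 to -1.24) in non-neuronal cells. Of all genes, 25.4% were lower in *Nppb* neurons and 23.8% in non-neuronal cells. *Nefh* neurons had *Tac1* at -0.95 (-1.13 to -0.77), with 34.7% of genes lower.

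**Figure D4:**
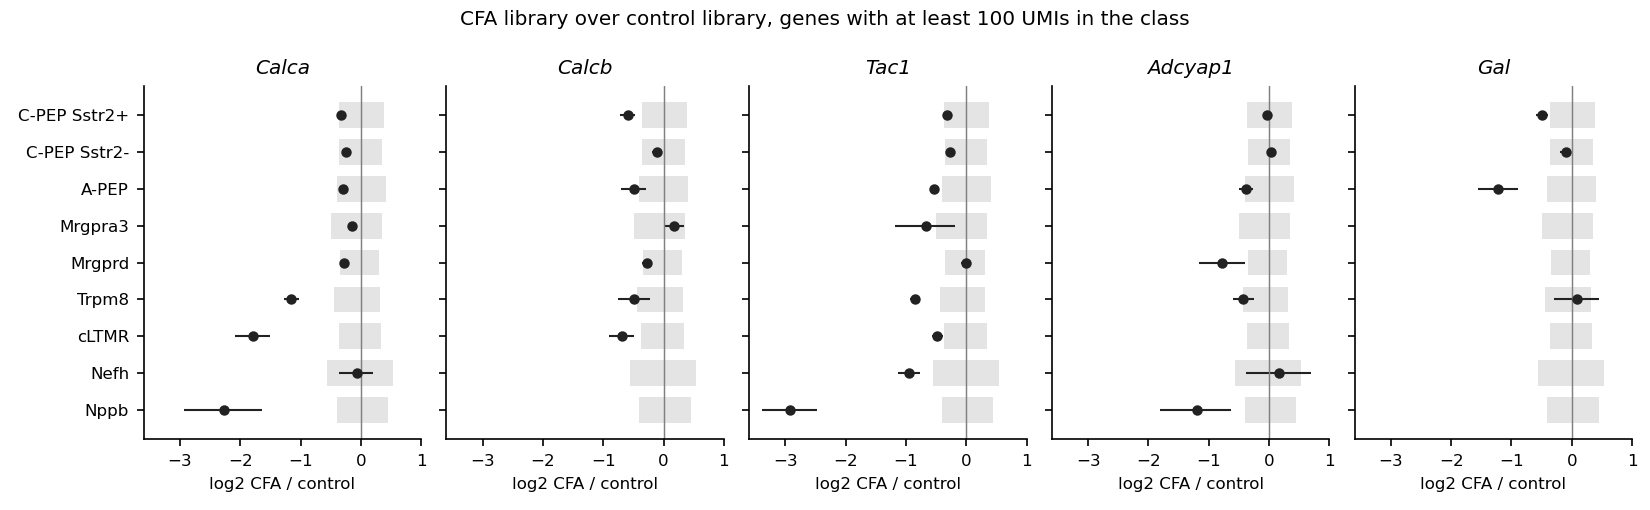
Log2 ratio of CFA over control CPM for each gene and class with at least 100 UMIs over both libraries; bars are exact 95% intervals for counting error. Grey bands span the 10th to 90th percentiles of all genes tested in that class, and the C-PEP points lie inside them except for *Calcb* and *Gal* in Sstr2+ neurons.

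Peptide transcripts were also counted in non-neuronal cells, at far lower levels. On average a non-neuronal cell held 0.449 *Calca* UMIs in control cells and 0.152 in CFA cells, against 286 and 208 in a neuron. After thinning to 500 UMIs, *Calca* was found in 12.8% of control (11.96 to 13.7) and 4.84% of CFA cells (4.11 to 5.65), and *Tac1* in 6.84% and 3.08%. In the control library the share with *Calca* was like across unrelated types, with 12.3% in myelinating Schwann cells, 11.8% in satellite glia, 14.5% in immune cells, 13.5% in fibroblasts and 15.8% in endothelial cells. It was lower in all 5 of these types in the CFA library, between 0.690% and 5.78%. The neuronal markers were lower as well, with *Tubb3* at 103 CPM in control and 61.5 CPM in CFA non-neuronal cells. Their level is capped by the gate, since non-neuronal cells had under 10 UMIs over the 5 neuronal genes.

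The ratios of the genes to each other were of the same order as in neurons, and several departed beyond counting error. *Tac1* stood at 0.490 UMIs per *Calca* UMI (0.458 to 0.525) in control and 0.616 (0.532 to 0.714) in CFA non-neuronal cells, against 0.580 and 0.581 in neurons. *Calcb* stood at 0.0786 and 0.0866, against 0.0834 and 0.0737 in neurons. *Adcyap1* departed in opposite directions, with 0.101 (0.0883 to 0.114) in control and 0.231 (0.186 to 0.284) in CFA non-neuronal cells against 0.143 and 0.181 in neurons, and reached 0.325 (0.234 to 0.446) in CFA myelinating Schwann cells on 53 *Adcyap1* UMIs. Of the CFA *Adcyap1* UMIs in non-neuronal cells, 30.4% came from 10 cells, and the highest cell had 9. *Calca* stood at 2.77 UMIs per *Tubb3* UMI (2.57 to 2.99) in control and 1.78 (1.53 to 2.07) in CFA non-neuronal cells, against 2.74 and 2.41 in neurons. Of the 273 CFA *Tubb3* UMIs, 50 came from oligodendrocyte-like cells, where the ratio was 0.28 (0.143 to 0.514). The intervals of CFA myelinating Schwann cells (1.57 to 2.73) and satellite glia (1.57 to 3.37) held the value of neurons.

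**Figure D5:**
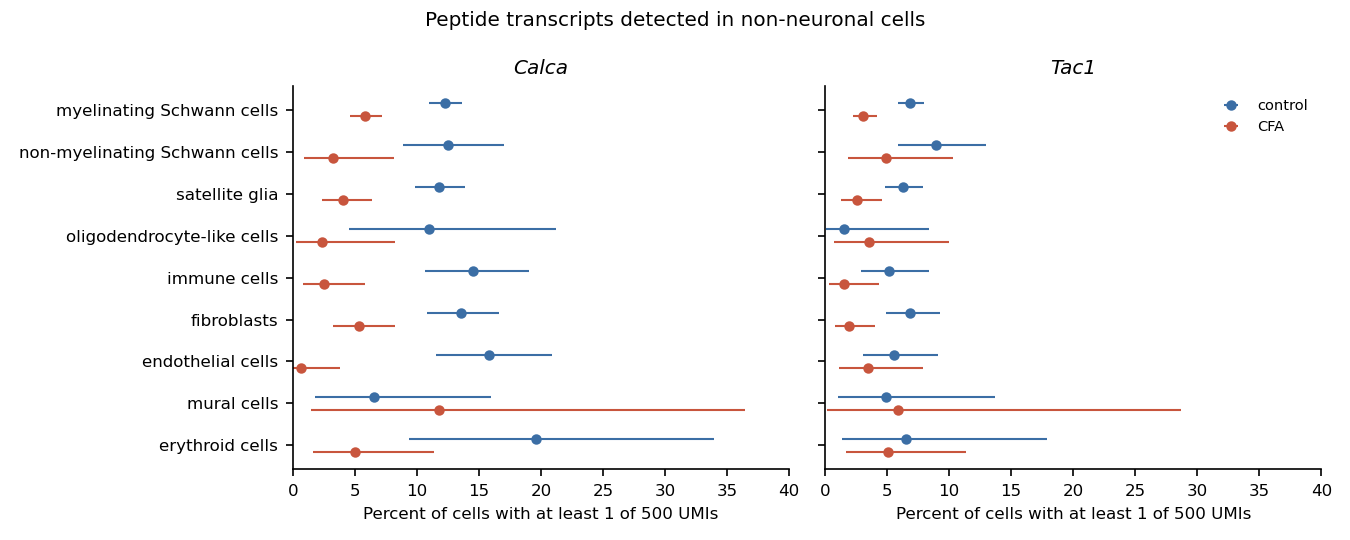
Percent of non-neuronal cells of 9 types in which *Calca* (left) or *Tac1* (right) was found after thinning to 500 UMIs, with exact 95% binomial intervals, for the control (blue) and CFA (red) libraries. Types of the same library have overlapping intervals in most cases, and the control library is higher in most types.

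The genes that make and pack the peptides differed in both directions between the libraries in C-PEP neurons, and their counts past the fold are to be read against the 22.1% of all genes that were lower and the 21.8% that were higher. Genes of these lists were called by the fold alone, whatever their counting error. Of 7 genes for precursor processing, 2 were lower by the fold and 5 within it. The exopeptidase gene *Cpe* had 371 and 314 CPM (log2 -0.24) and the convertase gene *Pcsk1* 21.1 and 17.4 CPM (-0.27), whereas the amidating enzyme gene *Pam* had 372 and 407 CPM (0.13). Of 8 genes for dense core vesicle cargo and release, 1 was lower, 1 was higher and 6 were within the fold. *Scg2*, a secretogranin gene, had 1734 and 1953 CPM, *Cadps2*, a vesicle priming gene, had 14.0 and 10.6 CPM (-0.41), and *Syt4*, a vesicle synaptotagmin gene, had 1202 and 1560.3 CPM (0.38, 0.34 to 0.41). Of 18 other neuropeptide genes, 3 had at least 100 UMIs in C-PEP neurons. *Cartpt* had 460.4 and 369.6 CPM (-0.32) and *Nmb* 326 and 281 CPM (-0.21), both past the fold, and *Bdnf* 356 and 334 CPM (-0.10). The median log2 ratio was -0.07 for processing and 0.06 for dense core vesicle genes, against -0.26 for the 5 peptide genes and -0.0034 for all genes tested.

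Receptors for these peptides were sparse in C-PEP neurons. Of 13 receptor genes, only *Galr1* and *Calcrl* had at least 100 UMIs. *Galr1*, a galanin receptor gene, had 19.4 and 29.1 CPM (0.59, 0.31 to 0.87), higher in the CFA library, and *Calcrl*, the receptor gene for CGRP, had 7.94 and 5.76 CPM (-0.46, -1.04 to 0.09). Galanin is known to rise after nerve injury, and genes of the injury response were therefore read beside it. *Atf3* had 219 and 231 CPM in C-PEP neurons, below its 477 and 565 CPM in non-neuronal cells, which are far shallower. Of 11 injury genes, 6 had at least 100 UMIs, 2 of these were lower by the fold, with 22.1% of all genes lower (*Flrt3* at -0.28 and *Csf1* at -0.29) and 0 higher. In C-PEP neurons with and without detected *Gal*, *Atf3* was at 238 and 209 CPM in the control and at 263 and 214 CPM in the CFA library. *Csf1* was also higher with *Gal* in both libraries, and *Gadd45a* was lower in both. For *Sox11*, *Flrt3* and *Gap43* the interval of the log2 difference held 0 in 1 library each. *Csf1* rests on few UMIs, 52 and 63 in CFA C-PEP neurons with and without detected *Gal*.

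Across the 9 neuron classes and 9 non-neuronal types of the control library, the gene with the profile most like *Calca* among 8417 ranked genes was *Slc29a4*, a monoamine transporter gene (Pearson's r = 0.975 over 18 classes, 0.893 in the CFA library), followed by *Cnih2* (0.937 and 0.932) and the nicotinic receptor gene *Chrna3* (0.917 and 0.767). For *Calcb* these were *Slc7a14* (0.965 and 0.9095), the glutamate receptor gene *Grm7* (0.949 and 0.907) and *Ina* (0.947 and 0.859), and for *Tac1* they were *Cntnap5a* (0.960 and 0.893), *4632428C04Rik* (0.954 and 0.929) and *Rit2* (0.945 and 0.909). *Adcyap1* was nearest to *Masp1* (0.959 and 0.672), the nicotinic receptor gene *Chrnb4* (0.956 and 0.834) and *Zdhhc22* (0.939 and 0.917). *Gal* was nearest to *Zcchc12* (0.982 and 0.881), the vasopressin receptor gene *Avpr1a* (0.979 and 0.943) and *Gpr83* (0.972 and 0.975). Among the peptide genes themselves, *Adcyap1* was most like *Tac1* (0.932 and 0.870) and *Gal* (0.927 and 0.915), and *Calca* and *Calcb* had 0.795 and 0.837. The 18 classes of a profile share 1 library, and the values are descriptions. A high r over neurons and non-neuronal types need not mean the same order of neuron classes. In the control, *Slc7a14* was higher in C-PEP (178 CPM) than in *Mrgprd* neurons (98.8 CPM), unlike *Calcb*. *Grm7* (102 CPM) and *Ina* (180 CPM) were highest in *Mrgprd* neurons, as *Calcb* was.

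The promoters of the genes were searched for the cAMP response element, since *Calca* and *Tac1* varied together over cells, in windows of 250 bases before to 50 after each RefSeq start (GRCm38.p6). The short core TGACG, on either strand, was in 20.8% of the 32851 promoters and in all 5 windows found for *Calca*, *Tac1*, *Gal* and the pair of starts of *Adcyap1*. Both *Adcyap1* windows hold the same core site, so they are not separate hits. A window for *Calcb* was not found in the table used. The full palindrome TGACGTCA was in 1.79% of promoters and in 0 of the 5. The longer TGACGCAA, picked after the sequences were seen, was in 0.490% of promoters and in those of *Calca* and *Tac1*. Picked that way, it is not a separate hit, and a shared control of the 2 genes was not tested. The cores upstream of the starts are shown on the strand of the gene, with the core in capitals. They lie 65 bases before the start of *Calca* (chr7:114636405-114636434, minus strand) and 197 and 43 bases before that of *Tac1* (chr6:7554852-7554881 and chr6:7555006-7555035, plus strand). These distances are to RefSeq starts, and that of *Tac1* differs from the GENCODE start given above. The second *Tac1* stretch lies inside the GENCODE span of the gene, which begins at chr6:7554879. The core of *Adcyap1* (chr17:93198914-93198943, plus strand) lies 91 bases before 1 of its starts and 242 bases before the other. In *Gal* the core lies 19 bases after the start.
Calca: gaagcacagaggTGACGcaatctgtctggg
Tac1, first: tccctaaaattgCGTCAtttcgaacacaat
Tac1, second: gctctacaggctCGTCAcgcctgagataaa
Adcyap1: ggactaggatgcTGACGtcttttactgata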

How the data were processed

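Single cells of the TGs had been captured on the BD Rhapsody system after papain digestion and a density gradient, and the authors deposited raw UMI counts per gene and cell, not normalized. The submitters' processing notes name fastp and GRCm38. The aligner and the gene annotation are not given in the sources used here. Depth was 48233077 UMIs over 6695 kept control cells and 21658155 over 3661 kept CFA cells, after removal of cells with under 150 genes or over 25% mitochondrial counts, as in the methods of the study.

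Cells with at least 100 UMIs over the 5 neuronal genes, all 5 detected, were neurons, cells under 10 UMIs were non-neuronal, and the 220 control and 99 CFA cells between were left out. Neurons with at least 5 UMIs of *Mrgprd*, *Mrgpra3* or *Nppb*, 3 of *Trpm8*, or 5 of *P2ry1* and 5 of *Tafa4*, *Cdh9* and *Slc17a8* together took that class, and 2 control neurons and 1 CFA neuron with more than 1 were set aside. The rest were peptidergic at 15 UMIs summed over *Gfra3*, *Trpv1* and a further marker that is not reported here, *Nefh*-high at 15 and Sstr2+ at 3, and 19 and 17 passed no gate. Non-neuronal types needed at least 2 of their markers, 3 UMIs and a score 1.5 times the next. UMIs were summed per class and library. Exact intervals came from the Poisson distribution (CPM), the Clopper-Pearson method (shares) and the conditional binomial distribution (ratios). No test between conditions was made. The tools were scanpy 1.11.5, matplotlib 3.10.9, scipy 1.17.1, numpy 2.4.6 and pandas 2.3.3 under Python 3.11.15. Only the intervals of ratios were tried on simulated data. These were Poisson counts without spread between cells, so the trial cannot show how the intervals hold for such spread. Scrublet called 107 control and 4 CFA doublets at unlike thresholds, so doublets were kept and left out only as an alternative.

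The members and lists were chosen with earlier results of these data known. Named genes are the peptide genes, genes of 5 related lists with at least 100 UMIs in neurons of a library, the markers of the classes and, for each peptide gene, the 3 nearest profiles by Pearson's r of log2(CPM + 10) among genes with at least 500 UMIs in control neurons. Alternatives were other cell filters, doubled or halved gate thresholds, totals without mitochondrial genes, centring on the median gene, equal weight per cell, thinning, other detection thresholds and removal of doublets, of neurons with interferon-induced genes and of the highest neuron of a split (the last pair and a Scrublet score limit of 0.25 were added after seeing the data).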

Additional observations from a re-analysis of the deposited data

Results flagged for a closer look

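The log2 ratio of CFA over control for *Calcb* was 0.18 in *Mrgpra3* neurons and -1.53 in *Nefh* neurons, with counting intervals on opposite sides of 0. The difference was not tested, since each condition is 1 library. The value in *Nefh* neurons rests on 12 CFA and 70 control UMIs, and the value in *Mrgpra3* neurons on 12 CFA neurons.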

How the results depend on the processing

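None of the log2 ratios of the 5 genes in C-PEP neurons changed sign. The other values under alternatives were levels and shares, which have no sign, and log2 ratios of other classes were not among them. Of the 102 values under alternatives 69 stayed within counting error. The interval of *Adcyap1* held 0 with halved thresholds (-0.02 to 0.05) and after thinning (-0.07 to 0.09). With gate thresholds doubled, which kept 319 control and 138 CFA C-PEP neurons, the log2 ratios were -0.195 for *Calca*, -0.195 for *Tac1* and -0.19 for *Calcb*, and with thresholds halved *Calca* was at -0.22 and *Calcb* at -0.195. Past the fold were then 1 and 3 of the 5 genes, 3 after thinning, and 4 under the other 9 settings. Equal weight per cell gave -0.30 for *Calca* and -0.34 for *Tac1*, and thinning to 5000 UMIs gave -0.29, -0.35 and, for *Adcyap1*, 0.0087. Control C-PEP levels with equal weight were 443 CPM for *Calcb*, 7123 for *Tac1*, 1970 for *Adcyap1* and 497 for *Gal*. Shares of control C-PEP neurons followed the threshold. At 2000 UMIs they were 9.79% for *Calcb*, 96.1% for *Tac1*, 70.6% for *Adcyap1* and 14.5% for *Gal*. At 1 UMI or more they were 99.7% for *Calca*, 82.2% for *Calcb*, 99.7% for *Tac1*, 97.0% for *Adcyap1* and 76.0% for *Gal*, and at 10 or more 0.297% for *Calcb*, 95.5% for *Tac1*, 48.4% for *Adcyap1* and 1.48% for *Gal*. *Calca*, *Tac1* and *Adcyap1* together were in 68.5%, 96.7% and 47.2% of control and 69.9%, 96.2% and 49.5% of CFA neurons under these settings. In non-neuronal cells thinned to 1000 UMIs, *Calca* was in 21.9% of control and 7.84% of CFA cells. No paired analysis was possible because each condition has 1 library, and no test was made. The number of mice per library limits every comparison, and classes with under 20 neurons are imprecise.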

Other observations

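Outside the C-PEP class, the other peptide genes had their own places. *Nts*, which encodes neurotensin, reached 716 CPM in control and 688 CPM in CFA *Nppb* neurons, the class poorest in the 5 genes. *Nmb*, which encodes neuromedin B, was higher in *Mrgprd* neurons (732 and 669.6 CPM) than in C-PEP neurons (326 and 281 CPM). *Scg3*, a granin gene that helps to form dense core vesicles, reached 2459 CPM in control and 2834 CPM in CFA *Mrgprd* neurons, against 397 and 438 CPM in C-PEP neurons.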
